A study of Mus musculus with 8 samples.

Results

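Nfkbiz, a nuclear regulator of NF-κB, and 9 further genes of the NF-κB family were followed in RNA sequencing of the jejunal mucosa. The 10 genes were chosen by symbol, as Nfkbiz, which the study discussed, together with 4 NF-κB subunits (Rela, Relb, Nfkb1 and Nfkb2), 3 cytoplasmic inhibitors (Nfkbia, Nfkbib and Nfkbie), the nuclear protein Bcl3 and the feedback inhibitor Tnfaip3. All 10 symbols matched 1 of the 56980 gene identifiers each, and all 10 were among the 15986 genes with enough counts to be tested. Because Nfkbiz was singled out by the study in these same samples, its values below are not independent evidence of its direction.

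The samples were scrapings of jejunal mucosa from 8 male mice, 4 FFA2 fl/fl littermates without Cre (floxed controls 1 to 4) and 4 Adipoq-F2-KO mice (Adipoq-F2-KO 1 to 4). Both genotypes carried floxed alleles of Ffar2, which encodes FFA2, a receptor for short-chain fatty acids, and in Adipoq-F2-KO mice an Adiponectin-Cre transgene, active in adipocytes, removed it there. The scrapings are not adipose tissue, the site of the deletion, but they held some adipocyte transcripts, as given below. Littermates of both genotypes shared cages from birth on chow, were 12 weeks old when moved to a Western diet with 10% fructooligosaccharides (FOS), a fermentable fiber, and were sampled after 2 weeks, with thermoneutral housing given for the treatment. The question was whether loss of FFA2 in adipocytes goes with a change of inflammatory regulators in the intestine.

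NF-κB factors are dimers of Rel-homology proteins that wait in the cytoplasm, bound by inhibitors of the IκB group, until signals from cytokine or microbial receptors lead the kinase complex IKK to mark the inhibitor for degradation. The freed dimer enters the nucleus and turns on inflammatory genes together with genes for its own brakes, among them Nfkbia and Tnfaip3, so that the mRNA of the brakes is commonly read as a record of recent signaling. IκBζ, the product of Nfkbiz, and Bcl3 resemble the inhibitors but act in the nucleus, where they bind the p50 and p52 subunits and change which promoters respond. In gut and skin epithelium IκBζ is known as a mediator of responses to interleukin-17.

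Several of these genes are themselves controlled through κB sites, and the stretches below show where the κB consensus decamer lies at promoters of the family. Promoter windows of 300 bases, from 250 before to 50 after a RefSeq start (assembly GRCm38.p6), were found for 7 of the 10 members (Bcl3, Nfkbia, Nfkbib, Nfkbie, Nfkb2, Rela and Tnfaip3). The decamer was searched on both strands, and overlapping matches were kept. It occurred in 8.46% of 32851 windows of this length over all genes, and in at least 1 window of 9.55% of 27025 genes, against 5 of the 7 members. Each stretch is written 5′ to 3′ on the strand of the gene, with the decamer in capitals. Those of Nfkbia (chr12:55492648-55492767, minus strand), Tnfaip3 (chr10:19015411-19015540, minus strand) and Nfkbie (chr17:45555580-45555699, plus strand) end on the base before the start.
Nfkbia: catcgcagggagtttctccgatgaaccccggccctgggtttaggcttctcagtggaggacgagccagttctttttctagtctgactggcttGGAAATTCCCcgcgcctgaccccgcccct
Tnfaip3: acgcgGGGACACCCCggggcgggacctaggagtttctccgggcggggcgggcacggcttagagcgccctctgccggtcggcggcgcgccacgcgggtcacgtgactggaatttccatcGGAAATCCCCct
Nfkbie: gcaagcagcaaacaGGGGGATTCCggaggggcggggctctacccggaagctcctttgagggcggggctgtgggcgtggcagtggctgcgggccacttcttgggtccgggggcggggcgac

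The decamer began 29 bases before the start in Nfkbia, 125 and 12 bases before it in Tnfaip3, and 106 bases before it in Nfkbie. For Nfkb2 (chr19:46304688-46304717, plus strand) and Bcl3 (chr7:19822734-19822763, minus strand) only 30 bases around a match are shown. Those of Nfkb2 hold a pair of overlapping decamers that begin 39 and 38 bases before the start, and that of Bcl3 begins on the third base of the transcript. Further matches in this window of Nfkb2, and in the windows at its other starts, are not shown. The windows of Nfkbib and Rela held no match. A match describes these letters and is not a bound site.
Nfkb2: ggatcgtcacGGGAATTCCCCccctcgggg
Bcl3: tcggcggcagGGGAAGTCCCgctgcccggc

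The 8 libraries held between 6007654 and 21712776 counts, and 3 of them (floxed 3, Adipoq-F2-KO 3 and 4) had under 10000000. Villus enterocyte markers gave summed normalized counts of 593500 to 683400 in Adipoq-F2-KO and 605700 to 666700 in controls. These markers show enterocytes in every library and do not test the position along the intestine. The summed level of 10 smooth muscle markers ranged from 3773 to 30140 in controls, highest in floxed 3, and from 4136 to 12360 in Adipoq-F2-KO. Stroma and vessel markers were likewise highest in floxed 3, at 1727. Since the samples are bulk tissue, fewer cells of a type and less RNA per cell cannot be told apart. Floxed 3 stood apart in several of the genes below, and results that rest on it are given with and without it.

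Levels between genes were compared in TPM, that is, counts per kilobase of exon scaled to the same sum in every library. Averaged over the 8 libraries, Nfkbia, which encodes the inhibitor IκBα, was the most abundant member at 158.9 ± 69.6 TPM (SD, n = 8), followed by Bcl3 at 83.9 ± 21.9 TPM and Nfkbiz at 60.03 ± 15.75 TPM. Nfkbib (44.5 TPM) and Relb (40.3 TPM) lay next, then Nfkb2, Tnfaip3, Nfkb1 and Rela between 26.4 and 28.4 TPM, and Nfkbie last at 4.02 TPM. Of neighbors in this order, only Relb over Nfkb2 and Rela over Nfkbie kept their order in 8 of 8 libraries. Nfkbia exceeded Bcl3 in 7 libraries, and Bcl3 over Nfkbiz, Nfkbiz over Nfkbib and Nfkbib over Relb held in 6 of 8. The order from Nfkb2 to Rela held in 3 to 5 libraries per pair, so these 4 genes did not differ beyond their spread. The rank of Nfkb1 depended on the length used, because its annotated exons cover 12061 bases and its longest transcript 4149. By the longest transcript it reached 66.7 TPM, above Nfkbiz at 61.6 TPM. The related genes Rel (6.64 TPM) and Nfkbid (5.05 TPM), which encode c-Rel and IκBNS and are not among the 10, were both low.

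Between genotypes, none of the 10 members passed a Benjamini-Hochberg (BH) adjusted p of 0.05 over all tested genes in DESeq2, where 6 of the 15986 genes, or 0.0375%, did. At an unadjusted p under 0.05 there was 1 member, Nfkbiz, against 3.03% of all tested genes in either direction and 1.65% in the direction higher in Adipoq-F2-KO. edgeR's quasi-likelihood test and limma-voom likewise called no member after adjustment. They had 1 member each at an unadjusted p under 0.05, against 3.48% and 4.3% of all tested genes. The adjusted DESeq2 p was 0.9998 for each of the other 9 members. Nfkbiz was also the 1 member whose genotypes did not overlap, which was so for 2.12% of all tested genes, and for 1.1% with every Adipoq-F2-KO library above every control. Estimates lay above 0 for 3 members (Nfkbiz, Nfkbie and Nfkb1) and below 0 for 7, with a median log2 fold change of −0.08. Over all tested genes 48.5% lay above 0, with a median of −0.01. The number of genes called depended on single libraries, being 2 without floxed 1, 23 without floxed 2, 103 without floxed 3, 3 without floxed 4 and 3 without Adipoq-F2-KO 4.

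Nfkbiz (ENSMUSG00000035356, protein-coding, chr16:55811375-55838899, minus strand) was the member with the clearest separation. Normalized counts, which are counts divided by the size factor of the library, were 934.8, 1020, 905.5 and 660.1 in floxed controls 1 to 4. They were 1206, 1233, 1420 and 1656 in Adipoq-F2-KO 1 to 4. Every Adipoq-F2-KO library lay above every control, and the lowest Adipoq-F2-KO value stood above the highest control. The mean was 880.2 ± 154.6 (SD, n = 4) in controls against 1379 ± 207.9 (SD, n = 4) in Adipoq-F2-KO, a 1.56-fold difference, or 0.64 on the log2 scale (standard error 0.17, 95% interval 0.32 to 0.97). The unadjusted DESeq2 p was 9.53e-05, the 12th smallest of all tested genes, and the adjusted p was 0.127, so Nfkbiz did not pass the threshold over all genes. Raw counts of 433 to 1989 per library lay behind these values.

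Single controls decided on which side of the threshold Nfkbiz fell. Without floxed 2 the adjusted DESeq2 p was 0.0419 with a log2 fold change of 0.72, and without floxed 3 it was 0.0329 with 0.66. Leaving out any of the other 6 libraries gave log2 fold changes of 0.53 to 0.71 and adjusted p-values of 0.194 to 0.842. The 5 libraries above 10000000 counts, 3 controls and 2 Adipoq-F2-KO, gave 0.48 with an adjusted DESeq2 p of 0.517. edgeR gave 0.64 with an adjusted p of 0.9994, and the adjusted p over all 17 alternatives ran from 0.0329 to 0.9994. The log2 fold change stayed above 0 in all 17.

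**Figure D1:**
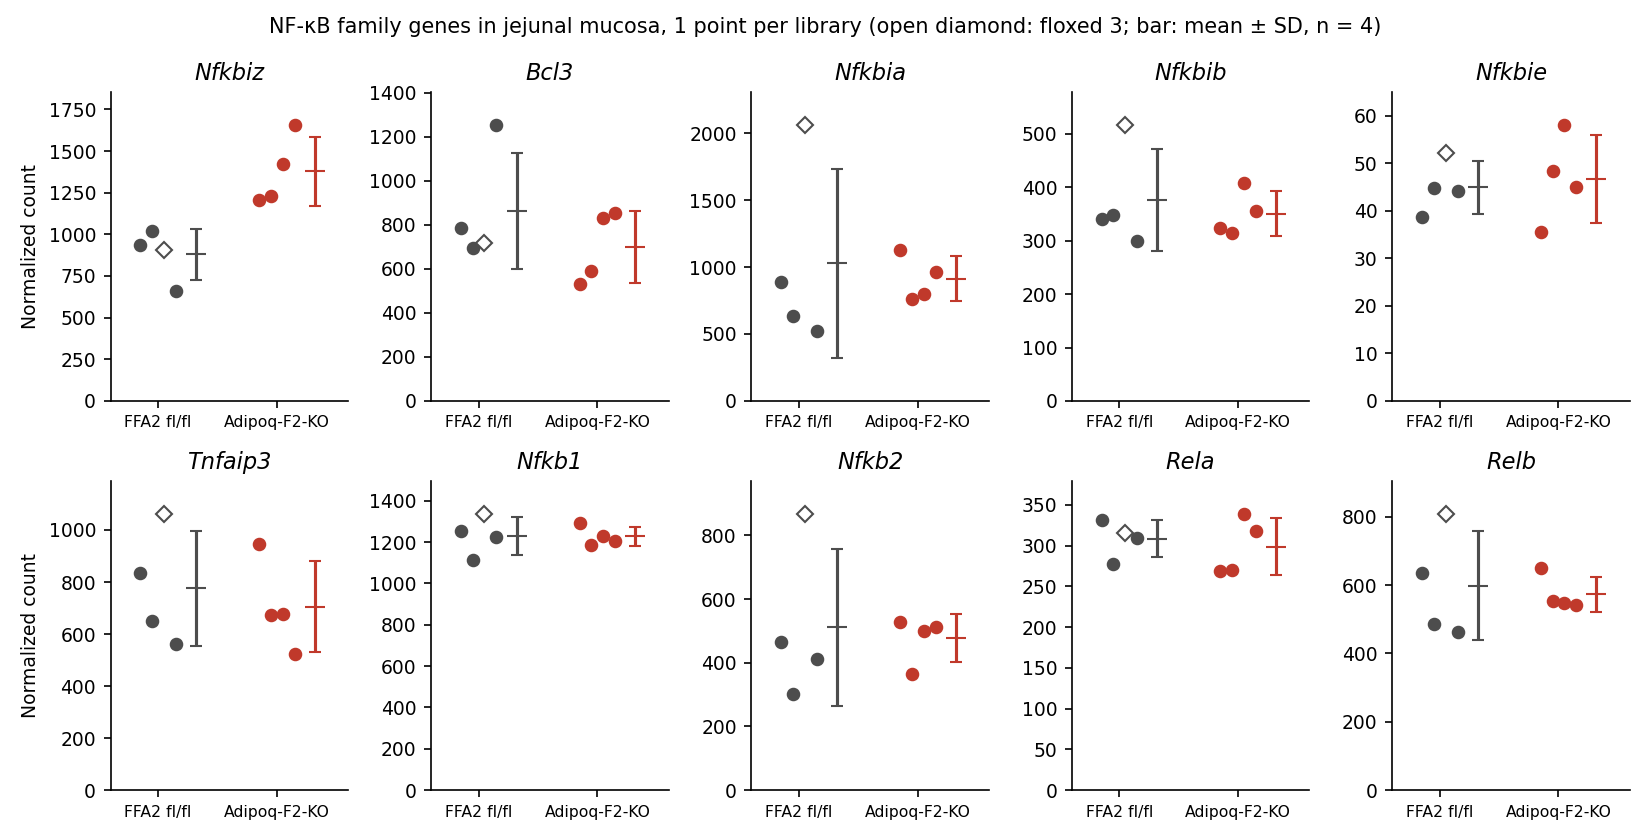
Normalized count (vertical axes, linear, from 0) of the 10 genes in each of the 8 libraries, floxed controls (FFA2 fl/fl) in gray and Adipoq-F2-KO in red, with the mean ± SD (n = 4) to the right of each group and floxed 3 as an open diamond. In Nfkbiz the 4 Adipoq-F2-KO libraries, 1206 to 1656, lie above all controls, 660.1 to 1020, whereas in the other 9 genes the genotypes overlap, and in Nfkbia floxed 3 stands at 2060.

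Bcl3 (ENSMUSG00000053175, chr7:19808462-19822770, minus strand), the other nuclear protein of the IκB group, which can bring activating domains to p50 and p52 dimers, did not share this pattern. Its normalized counts were 787.5, 695.7, 715.2 and 1253 in controls 1 to 4 against 532.1, 589.0, 830.9 and 851.7 in Adipoq-F2-KO 1 to 4. Adipoq-F2-KO 1 and 2 lay below all controls, Adipoq-F2-KO 3 and 4 lay inside their range, and floxed 4 stood far above the rest. The log2 fold change was −0.31 (standard error 0.23, 95% interval −0.76 to 0.14; DESeq2, adjusted p = 0.9998). Its size depended on single libraries, being −0.071 without floxed 4, −0.19 without Adipoq-F2-KO 1 and −0.0947 with the macrophage and dendritic cell marker score as a covariate. In the 5 libraries above 10000000 counts it was −0.71 (DESeq2, unadjusted p = 0.00761, adjusted 0.3198). Bcl3 overlaps the antisense genes Gm16174 and Gm16175, which held 94 and 54 counts in all against 7073 for Bcl3.

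The cytoplasmic inhibitors were led by Nfkbia (ENSMUSG00000021025, chr12:55489410-55492647, minus strand), whose protein IκBα is rebuilt after each round of signaling. Its normalized counts were 885.1, 637.8, 2060 and 523.9 in controls 1 to 4 against 1129, 762.0, 794.8 and 964.5 in Adipoq-F2-KO 1 to 4. Floxed 3 held more than any other library, and floxed 2 and 4 held less than every Adipoq-F2-KO library. With all libraries the log2 fold change was −0.17 (standard error 0.46, 95% interval −1.08 to 0.74; DESeq2, adjusted p = 0.9998). Without floxed 3 it turned to 0.42 (95% interval 0.02 to 0.82), with an unadjusted DESeq2 p of 0.0378 and an adjusted p of 0.559. The coefficient of variation of Nfkbia was 68.7% in controls, 27.1% in controls without floxed 3, and 18.6% in Adipoq-F2-KO.

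Nfkbib (ENSMUSG00000030595, chr7:28758251-28767512, minus strand), which encodes IκBβ, had 340.5, 347.9, 516.5 and 300.3 normalized counts in controls against 324.4, 315.0, 408.4 and 355.3 in Adipoq-F2-KO. Here too floxed 3 was the highest library and the genotypes overlapped. The log2 fold change was −0.09 (95% interval −0.46 to 0.27) and 0.08 without floxed 3. Nfkbib shares exon bases with Sirt2 and Ccer2 on the opposite strand, and Sirt2 held 3634 counts against 3169 for Nfkbib, so its counts are uncertain if strand was not used in counting.

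Nfkbie (ENSMUSG00000023947, chr17:45555703-45563169, plus strand), which encodes IκBε, was the least abundant member, with raw counts of 24 to 85 per library. Its normalized counts were 38.8, 44.8, 52.3 and 44.1 in controls against 35.5, 48.4, 58.1 and 45.1 in Adipoq-F2-KO. The genotypes overlapped fully, with a log2 fold change of 0.05 and a 95% interval of −0.46 to 0.56.

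Tnfaip3 (ENSMUSG00000019850, chr10:19000910-19015657, minus strand) encodes A20, an enzyme that edits ubiquitin chains and shuts off signaling upstream of IKK. Its normalized counts were 834.2, 650.9, 1060 and 560.3 in controls against 946.5, 671.4, 678.7 and 524.5 in Adipoq-F2-KO. Floxed 3 was again the highest library and Adipoq-F2-KO 4, the library with the most Nfkbiz, was the lowest. The log2 fold change was −0.13 (standard error 0.23, 95% interval −0.58 to 0.32; DESeq2, adjusted p = 0.9998), and 0.05 without floxed 3.

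Among the subunits, Nfkb1 (ENSMUSG00000028163, chr3:135584655-135691547, minus strand), which encodes p105 and its product p50, varied least over the 8 libraries, with a highest value 1.20 times the lowest. It held 1255, 1112, 1334 and 1225 normalized counts in controls against 1291, 1185, 1231 and 1203 in Adipoq-F2-KO. The coefficient of variation was 7.49% in controls against 3.75% in Adipoq-F2-KO. DESeq2 put the log2 fold change at 0.00 (95% interval −0.18 to 0.18), an interval that lies wholly below the lower bound of that of Nfkbiz. Its gene body contains Gm43430 on the same strand, with 1236 counts and no shared exon.

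Rela (ENSMUSG00000024927, chr19:5637483-5648130, plus strand), which encodes p65, the main activating subunit, had a coefficient of variation of 7.44% in controls and 11.7% in Adipoq-F2-KO. Its normalized counts were 332.0, 277.2, 315.8 and 309.6 in controls against 269.2, 269.7, 338.4 and 317.7 in Adipoq-F2-KO, with overlap of the genotypes. The log2 fold change was −0.06 with a 95% interval of −0.33 to 0.20.

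The subunits of the noncanonical pathway, which is driven by receptors such as the lymphotoxin β receptor, followed Nfkbia in floxed 3. Nfkb2 (ENSMUSG00000025225, chr19:46304320-46312385, plus strand), which encodes p100 and p52, had 464.0, 302.5, 865.7 and 411.7 normalized counts in controls against 528.9, 365.2, 500.5 and 511.4 in Adipoq-F2-KO. Relb (ENSMUSG00000002983, chr7:19606217-19629438, minus strand), the usual partner of p52, had 636.7, 486.5, 807.2 and 462.0 in controls against 650.5, 553.0, 546.6 and 541.4 in Adipoq-F2-KO. In both genes the genotypes overlapped. The log2 fold change was −0.09 (95% interval −0.65 to 0.46) for Nfkb2 and −0.05 (95% interval −0.42 to 0.31) for Relb, and without floxed 3 it was 0.28 and 0.12. Nfkb2 shares exon bases with Psd and AC114539.1 on the opposite strand, which held 742 and 376 counts against 4067.

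**Figure D2:**
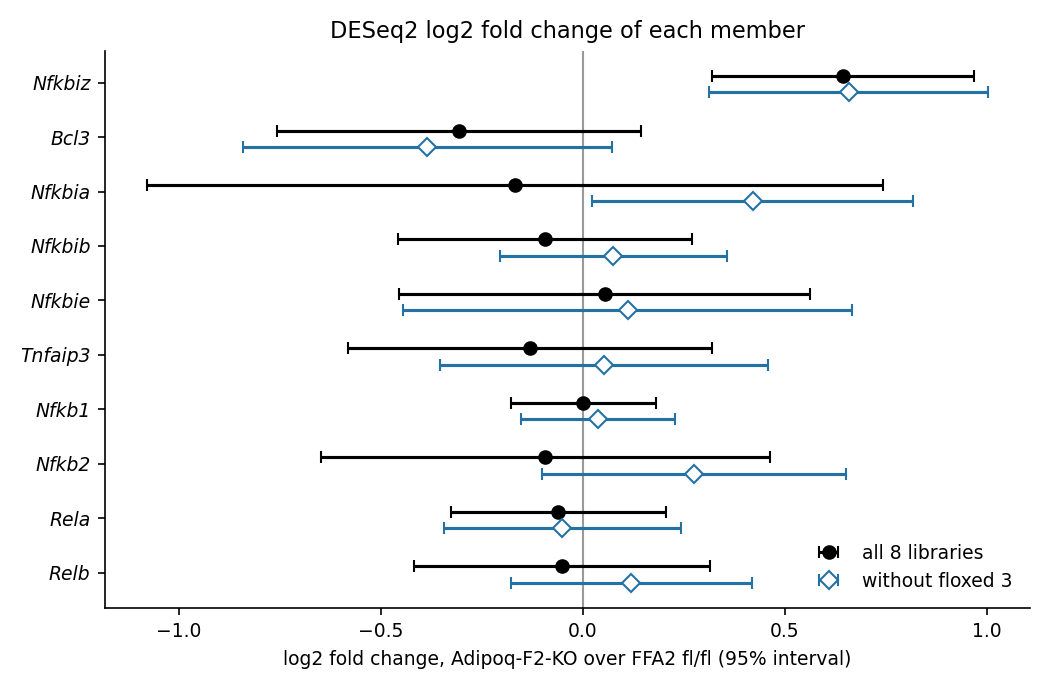
DESeq2 log2 fold change, Adipoq-F2-KO over floxed controls (horizontal axis), with its 95% interval for each of the 10 genes, from all 8 libraries (black circles) and without floxed 3 (open blue diamonds). The interval of Nfkbiz lies above 0 in both fits (0.32 to 0.97 and 0.31 to 1.00), and the estimate of Nfkbia moves from −0.17 to 0.42.

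Floxed 3 was the highest control for 7 members (Nfkbia, Nfkbib, Nfkbie, Tnfaip3, Nfkb1, Nfkb2 and Relb) and not for Nfkbiz, Bcl3 and Rela. Without it, 2 members had an unadjusted p under 0.05 (Nfkbiz and Nfkbia), as did 8.14% of all tested genes, and the estimates of Nfkbia, Nfkbib, Nfkb2, Relb and Tnfaip3 changed sign. Floxed 3 was also the library with the highest smooth muscle level and the fewest counts. With a smooth muscle score as a covariate over the 8 libraries, the log2 fold change was −0.0748 for Nfkbia, −0.0812 for Nfkb2, −0.0552 for Relb, −0.11 for Nfkbib, −0.13 for Tnfaip3 and 0.62 for Nfkbiz (DESeq2, adjusted p = 0.0831 for Nfkbiz and 0.9999 for the others). The part of muscle content and depth in the values of floxed 3 itself was not tested.

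Whether Nfkbiz differed from its relatives was asked within each library, as the log2 ratio of its count to that of another member, which does not depend on the size factor. All 9 ratios were on average higher in Adipoq-F2-KO, by 0.61 to 0.94. Nfkbiz, singled out in these same samples, is the numerator of all 9, so the ratios depend on each other and carry its own difference. Their tests are not independent evidence that it differed from its relatives. Over Bcl3 the ratio was 0.25, 0.55, 0.34 and −0.92 in controls 1 to 4 against 1.18, 1.07, 0.77 and 0.96 in Adipoq-F2-KO 1 to 4. Over Rela it was 1.49, 1.88, 1.52 and 1.09 in controls against 2.16, 2.19, 2.07 and 2.38 in Adipoq-F2-KO. Over Nfkb1 it was −0.42, −0.12, −0.56 and −0.89 in controls against −0.10, 0.06, 0.21 and 0.46 in Adipoq-F2-KO. For Rela, Nfkb1, Nfkbib, Nfkbie and Bcl3 all 4 Adipoq-F2-KO libraries lay above all controls (exact permutation test, two-sided, p = 0.0286 each, adjusted over 9 ratios 0.0514). That p is the smallest that 4 against 4 libraries can give, and 0 of the 9 ratios passed an adjusted p of 0.05. Without floxed 2, 6 of the 9 did, and without any other single library none did. Without floxed 4 the difference over Bcl3 was 0.61.

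Over Relb the ratio differed by 0.68 and over Tnfaip3 by 0.78, where 3 of 4 libraries from Adipoq-F2-KO exceeded every control (exact permutation test, two-sided, p = 0.0571 each, adjusted 0.0735). Over Nfkb2 the difference was 0.66 and over Nfkbia 0.63, and the genotypes overlapped (exact permutation test, p = 0.143 and 0.171, adjusted 0.161 and 0.171). Both depended on single controls. Without floxed 3 they were 0.39 and 0.24 (exact permutation test, p = 0.257 and 0.314, adjusted 0.289 and 0.314), and without floxed 2 they were 0.95 and 0.86 (exact permutation test, p = 0.0286 and 0.0857, adjusted 0.0429 and 0.0857). Over Nfkbia the ratio was 0.08, 0.68, −1.18 and 0.33 in controls against 0.10, 0.69, 0.84 and 0.78 in Adipoq-F2-KO, so floxed 3 alone held clearly more Nfkbia than Nfkbiz counts.

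**Figure D3:**
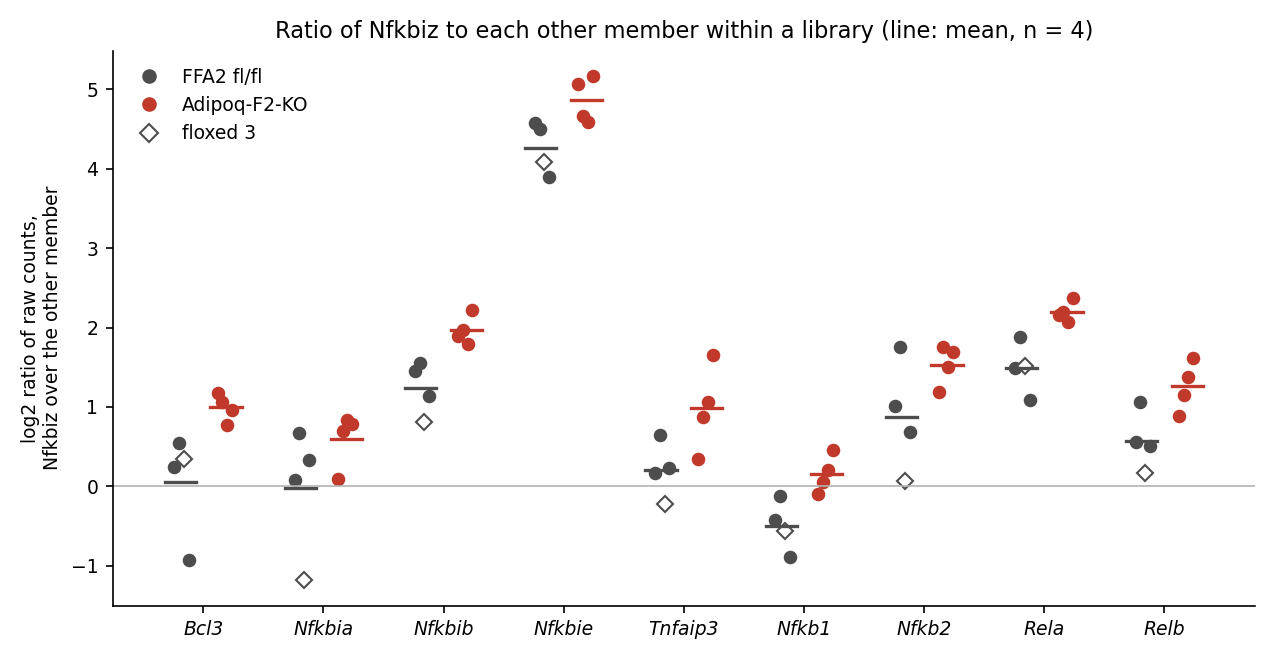
log2 ratio of the raw count of Nfkbiz to that of each other member (vertical axis) in each library, floxed controls in gray, Adipoq-F2-KO in red, floxed 3 as an open diamond, and the mean of 4 libraries as a line. For Bcl3, Nfkbib, Nfkbie, Nfkb1 and Rela the 4 Adipoq-F2-KO points lie above all controls, and over Nfkbia floxed 3 lies lowest at −1.18.

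Across the 8 libraries several members were correlated with each other, and Nfkbiz was in none of the pairs that passed the test. Of 45 pairs of members, 2 passed an adjusted p of 0.05 by Pearson's r and none by Spearman's rho. These were Relb with Nfkbia (r = 0.95, exact permutation p = 7.44e-04, adjusted 0.0335; rho = 0.83, exact permutation p = 0.0154, adjusted 0.173) and Relb with Tnfaip3 (r = 0.89, exact permutation p = 0.00193, adjusted 0.0435; rho = 0.90, exact permutation p = 0.00456, adjusted 0.103). Without the 2 libraries farthest from the median of Nfkbia or of Tnfaip3, r was 0.80 and 0.71. Many of the values depended on floxed 3. Without it, r of Nfkbia was 0.88 with Relb and 0.68 with Nfkb2, but 0.27 with Nfkbib, against 0.95, 0.89 and 0.78 in all libraries, and r of Nfkb2 with Tnfaip3 was 0.25 against 0.62. Nfkbiz had r between −0.45 (Bcl3) and 0.19 (Nfkbie) with the other 9 members. Without floxed 3 its r with Nfkbia moved from 0.17 to 0.69 and with Nfkbib from 0.10 to 0.63, values over 7 libraries that are given with no test, and without floxed 4 and Adipoq-F2-KO 4 its r with Nfkbia was −0.44.

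**Figure D4:**
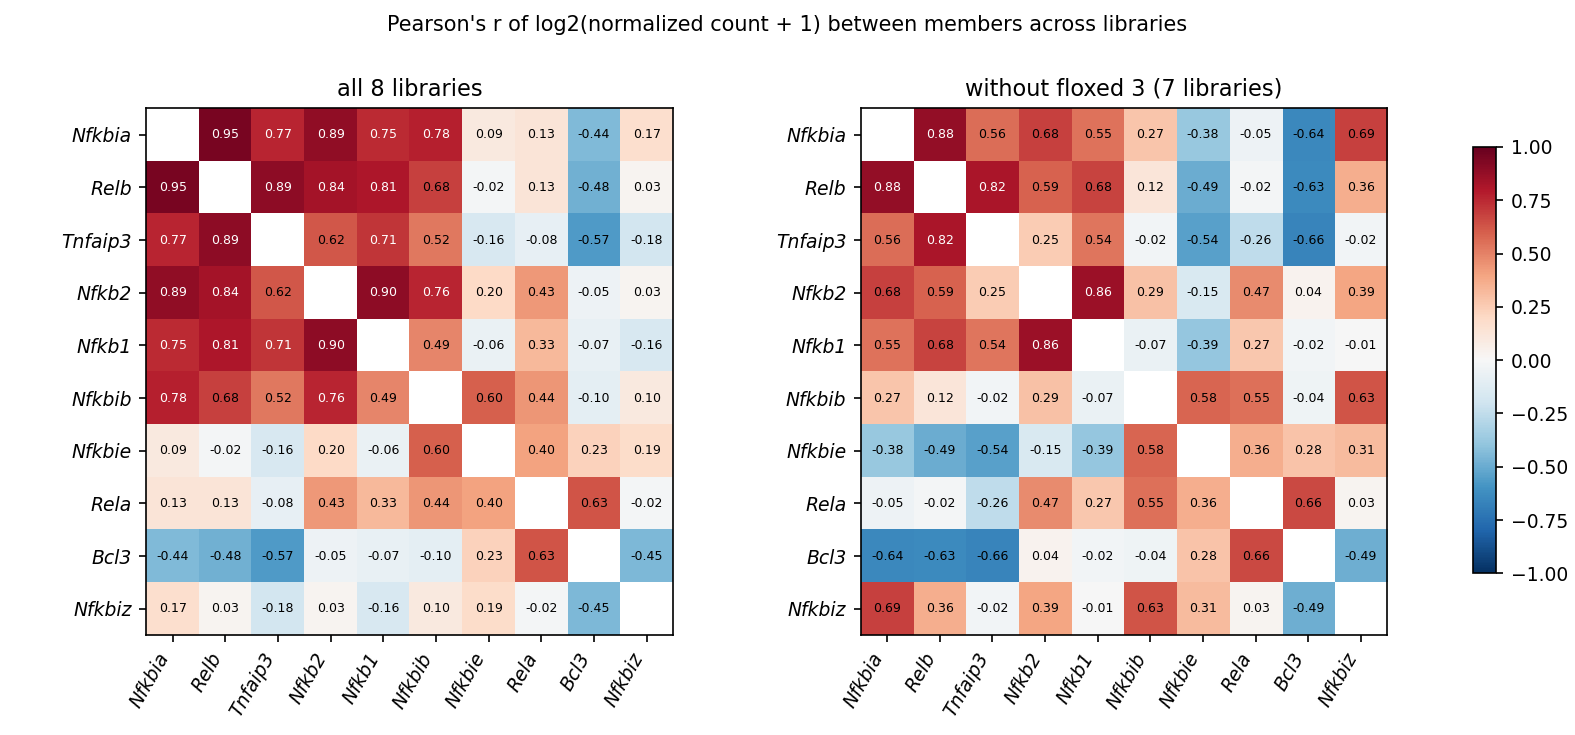
Pearson's r between each pair of the 10 genes over all 8 libraries (left) and over the 7 without floxed 3 (right), on log2(normalized count + 1), from −1 (blue) to 1 (red). Pairs among Nfkbia, Relb, Tnfaip3, Nfkb2 and Nfkb1 have r of 0.62 to 0.95 at the left and Nfkbib reaches 0.78 with Nfkbia, of which 2 pairs passed the test, several are lower at the right, and the row of Nfkbiz is pale at the left and reaches 0.69 with Nfkbia at the right.

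Immune cell markers were higher by estimate alongside Nfkbiz. All 10 macrophage and dendritic cell markers had estimates higher in Adipoq-F2-KO (median log2 fold change 0.54), although 0 of 10 had an unadjusted DESeq2 p under 0.05, and none of them was at 3 counts or fewer in every library. Their summed normalized count was 258.5 to 577.2 in controls against 431.8 to 757.7 in Adipoq-F2-KO. Their score, the mean of centered log2 values, followed Nfkbiz over the 8 libraries with r = 0.87 (exact permutation p = 0.00494, adjusted over 30 relations 0.148; rho = 0.88, exact permutation p = 0.00724, adjusted 0.217), and r was 0.65 once floxed 1 and 4, with the scores farthest from the median, were left out. Within a genotype 4 libraries are too few for a correlation, and the score was lowest in floxed 4 and highest in Adipoq-F2-KO 4, the libraries with the least and the most Nfkbiz. With this score as a covariate, added after the relation was seen, the log2 fold change of Nfkbiz was 0.39 (DESeq2, unadjusted p = 0.011, adjusted 0.610).

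The other members had weaker relations to this score, with r between −0.47 for Bcl3 and 0.48 for Nfkbie. B and plasma cell markers were higher by estimate in 7 of 8 tested genes (median log2 fold change 1.01, summed counts 410.2 to 2921 in controls against 1048 to 2106 in Adipoq-F2-KO, Mzb1 at 3 counts or fewer in every library), and their score gave r = 0.75 with Nfkbiz (exact permutation p = 0.0331, adjusted 0.432; rho = 0.71, exact permutation p = 0.0576, adjusted 0.575), and 0.34 without floxed 1 and 4. T and intraepithelial lymphocyte markers were higher by estimate in 8 of 10, with summed counts of 1903 to 3266 in controls against 2613 to 3239 in Adipoq-F2-KO. The 2 with estimates below 0 were Cd3e (−0.07 on the log2 scale) and Cd8a (−0.03). Higher at an unadjusted DESeq2 p under 0.05 were 2 of 10, against 1.65% of all tested genes. These were Cd4 (1.10) and Cd2 (1.35, at a mean of 6.33 normalized counts in controls), both named after their values were seen. Crypt and cycling cell markers were higher by estimate in 7 of 9 tested genes, 3 of them at an unadjusted DESeq2 p under 0.05 (1.65% of all tested genes were higher at that p), with summed counts of 1988 to 2742 in controls and of 2526 to 3224 in Adipoq-F2-KO. Neutrophil markers were nearly absent, since 6 of 10, including Ly6g, S100a8 and S100a9, had 3 counts or fewer in every library. The smooth muscle score gave r = 0.37 with Nfkbiz (exact permutation p = 0.363, adjusted 0.840; rho = 0.29, exact permutation p = 0.501, adjusted 0.939; 0.71 without floxed 1 and 3), and none of the 30 relations between a member and a score passed after adjustment. The part of immune cell content in the Nfkbiz values was not tested beyond the covariate.

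**Figure D5:**
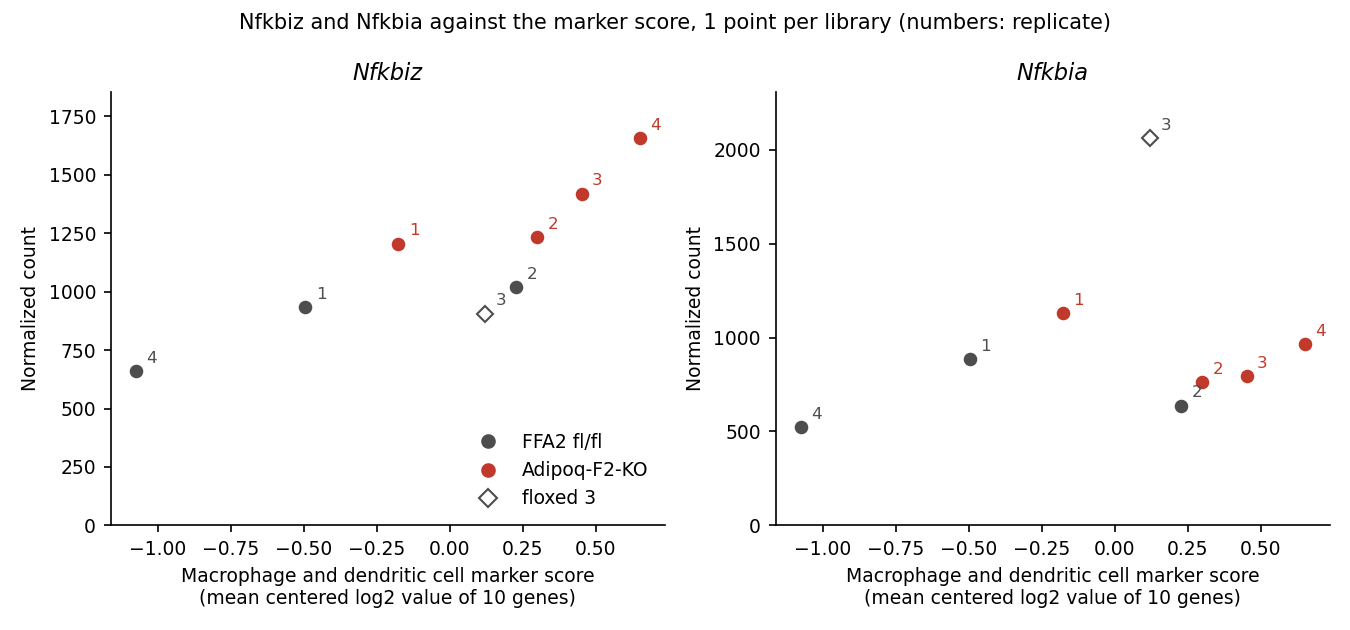
Normalized count (vertical axes, linear, from 0) of Nfkbiz (left) and Nfkbia (right) against the score of 10 macrophage and dendritic cell markers (horizontal axes) in each of the 8 libraries, numbered by replicate, floxed controls in gray and Adipoq-F2-KO in red. Nfkbiz is higher at higher scores (r = 0.87), and Nfkbia is not clearly so (r = 0.31), with floxed 3 at 2060.

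The genes whose values over the 8 libraries were most like those of Nfkbiz were ranked by Pearson's r among 8137 genes with a mean of at least 100 normalized counts. They were Prpf18 (r = 0.96), Rtf2 (0.96), Kbtbd2 (0.95), BC005537 (0.92) and Sgms2 (0.91). Part of the likeness is the genotype itself, and the r of deviations from the genotype means was 0.93, 0.86, 0.89, 0.94 and 0.74. Their own differences were smaller, with log2 fold changes of 0.24, 0.13, 0.25, 0.07 and 0.30, and none passed an adjusted p of 0.05 in DESeq2. Sgms2, which encodes sphingomyelin synthase 2, had 1565 ± 199.8 (SD, n = 4) normalized counts in controls against 1919 ± 63.2 (SD, n = 4) in Adipoq-F2-KO, without overlap.

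Of the signals that start the pathway, few were measurable in the mucosa. Of 15 ligands, 4 were tested (Ltb, Il18, Il33 and Tnfsf13b) and 0 had an unadjusted DESeq2 p under 0.05, while Il17a, Il17f, Il36a and Il36g had 3 counts or fewer in every library. Of these 4 tested ligands, Il33, an epithelial alarmin, had 657.0 ± 239.9 (SD, n = 4) normalized counts in controls against 938.2 ± 190.6 (SD, n = 4) in Adipoq-F2-KO (DESeq2, unadjusted p = 0.0574). It is named after its values were seen. Of 21 receptors and sensors, 16 were tested, 11 with estimates above 0 and 5 below. Nod1, an intracellular sensor of bacterial peptidoglycan, was the 1 gene of the 16 with an unadjusted p under 0.05, against 3.03% of all tested genes. It held 40.0, 44.3, 56.5 and 28.6 normalized counts in controls against 46.6, 63.2, 68.1 and 65.8 in Adipoq-F2-KO, with overlap, and a log2 fold change of 0.55 (DESeq2, unadjusted p = 0.0477, adjusted 0.9998). With the macrophage and dendritic cell score as a covariate it was 0.21 (DESeq2, unadjusted p = 0.477), and the unadjusted p was 0.05 or higher in 6 of 8 fits with a library removed.

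The transducing machinery between receptor and NF-κB differed little by estimate. All 26 adaptors, kinases and ubiquitin ligases were tested, with 15 estimates above 0, 11 below, a median log2 fold change of 0.02 and 0 genes at an unadjusted DESeq2 p under 0.05. Genotypes did not overlap in 2 of the 26, both higher in Adipoq-F2-KO, against 1.1% of all tested genes. These were Myd88, the adaptor of interleukin-1 and Toll-like receptors (187.3 ± 7.05 in controls, 215.4 ± 18.3 in Adipoq-F2-KO; SD, n = 4; log2 fold change 0.21), and Irak2, a kinase-like partner of it (log2 fold change 0.09), both named after their values were seen. Myd88 shares exon bases with Acaa1a on the opposite strand, which held 17581 counts against 1864 for Myd88. The Myd88 counts are uncertain if strand was not used in counting. The IKK subunits Chuk, Ikbkb and Ikbkg had log2 fold changes of 0.04, 0.04 and 0.03. Of 13 further negative regulators, 7 had estimates above 0 and 6 below, with a median of 0.01 and 0 genes at an unadjusted p under 0.05. Tnip1, a binding partner of A20 named after its values were seen, was the 1 of the 13 without overlap, against 2.12% of all tested genes in either direction, and was lower in Adipoq-F2-KO (log2 fold change −0.10).

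Among 30 known NF-κB target genes, 23 were tested, 16 with estimates above 0 and 7 below (median log2 fold change 0.13), and none passed an adjusted p of 0.05. At an unadjusted p under 0.05, 4 were higher in Adipoq-F2-KO (Tnfaip2, Irf1, Psmb9 and Mmp9) and Ier3 was lower, which is 5 of 23 tested, against 3.03% of all tested genes. The list was chosen with earlier results of these data known, so the 2 shares are a description and not a test. Tnfaip2 had 15.2, 18.5, 14.6 and 11.6 normalized counts in controls against 28.4, 23.6, 30.03 and 33.8 in Adipoq-F2-KO, from 7 to 38 raw counts per library (log2 fold change 0.91; DESeq2, unadjusted p = 0.0107, adjusted 0.9998). Irf1, an interferon-responsive transcription factor, had 1040, 1099, 1637 and 1644 in controls against 1675, 1938, 1750 and 1842 in Adipoq-F2-KO (log2 fold change 0.41; DESeq2, unadjusted p = 0.0161, adjusted 0.9998). In both genes the genotypes did not overlap, as in 2.12% of all tested genes, and for Irf1 the gap was narrow. Ier3, an early-response gene, had 46.0, 49.5, 56.5 and 53.4 in controls against 29.2, 39.1, 34.0 and 32.0 in Adipoq-F2-KO, also without overlap and in the opposite direction (log2 fold change −0.59; DESeq2, unadjusted p = 0.0224, adjusted 0.9998). With 1 library left out in turn, the unadjusted p stayed under 0.05 in 8 of 8 fits for Tnfaip2, in 5 for Irf1 and in 4 for Ier3. For Tnfaip2 it was 0.103 with the macrophage and dendritic cell score as a covariate (DESeq2, log2 fold change 0.70) and 0.115 in the 5 libraries above 10000000 counts. In the same 2 fits it was 0.0537 and 0.113 for Ier3, and 0.0323 and 0.023 for Irf1. Psmb9, a subunit of the immunoproteasome (log2 fold change 0.52, with overlap), and Mmp9, a matrix protease (1.28, without overlap at a mean of 6.63 and 18.3 normalized counts), fell outside the rule for named genes and were chosen after their values were seen.

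Genes linked to IκBζ or interleukin-17 in epithelium were mostly out of reach. Of 17 such genes 7 were tested, 3 with estimates above 0 and 4 below, and 0 had an unadjusted DESeq2 p under 0.05. Lcn2, Il6, Il12b, Csf3, S100a8, S100a9, Cxcl5 and Saa3 had 3 counts or fewer in every library, so a difference in them was not detectable at this depth. Of these genes 3 are named after their values were seen. Pigr, the receptor that carries IgA across the epithelium, had a log2 fold change of −0.01, and the antimicrobial lectin genes Reg3b and Reg3g had −0.73 and −0.42 with overlap of the genotypes.

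In 3 genes of these lists, chosen after their values were seen, floxed 3 lay on the other side of Adipoq-F2-KO from the remaining controls. Nos2, which encodes inducible nitric oxide synthase, had 195.1, 84.9, 4592 and 95.2 normalized counts in controls against 673.4, 541.3, 961.0 and 494.4 in Adipoq-F2-KO. Duox2, an epithelial oxidase that releases hydrogen peroxide, had 109.7, 493.3, 3256 and 412.5 in controls against 1235, 1595, 566.6 and 1998 in Adipoq-F2-KO. Duoxa2, its maturation factor, had 7.27, 21.6, 271.9 and 19.4 in controls against 92.4, 109.1, 54.1 and 129.7 in Adipoq-F2-KO. In each gene the 4 Adipoq-F2-KO libraries lay above floxed 1, 2 and 4 and below floxed 3. With all libraries the log2 fold changes were −0.89, 0.34 and 0.28, where DESeq2 gave no p for Nos2 and adjusted p-values of 0.9998 for the other two. These estimates varied with the method on the same 8 libraries. Limma-voom gave 1.57, 1.47 and 2.18 (adjusted p = 0.974 each), the smooth muscle covariate in DESeq2 gave 0.62, 0.97 and 1.28 (adjusted p = 0.9999 each), and the macrophage and dendritic cell covariate gave −1.45, −0.24 and −0.31 (DESeq2, adjusted p = 0.9998 each). Without floxed 3 they were 2.41 for Nos2 (DESeq2, adjusted p = 5.32e-12), 1.99 for Duox2 (DESeq2, adjusted p = 0.172) and 2.59 for Duoxa2 (DESeq2, adjusted p = 3.72e-07). These values rest on 3 controls, and on genes picked for this pattern. Floxed 3 thus held the most Nos2, Duox2, Duoxa2, Nfkbia, Nfkb2, Relb and Tnfaip3 of all libraries, and 905.5 normalized counts of Nfkbiz, inside the range of the other controls.

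Genes that respond to handling were described alongside, since several of them share triggers with Nfkbia. Of 10 immediate early genes 9 were tested and 8 had estimates below 0 (median log2 fold change −0.40), with summed normalized counts of 2043 to 6309 in controls, highest in floxed 3, and 2995 to 4455 in Adipoq-F2-KO. Fosb, a subunit of the AP-1 factor, was the 1 of the 9 with an unadjusted p under 0.05, against 3.03% of all tested genes. It had 155.1, 67.5, 140.1 and 49.5 normalized counts in controls against 79.7, 45.3, 32.0 and 50.8 in Adipoq-F2-KO (log2 fold change −0.96; DESeq2, unadjusted p = 0.0191, adjusted 0.9998), with overlap of the genotypes. In the 5 libraries above 10000000 counts it was −0.55 (DESeq2, unadjusted p = 0.297), and the unadjusted p was 0.05 or higher in 4 of the 8 fits without 1 library. The part of handling in the values of the members was not tested.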

How the data were processed

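The authors trimmed reads with Trimmomatic, aligned them with STAR (the submitters' processing notes name the mouse build GRCm38) and assigned them to genes with featureCounts. The deposited files hold raw read counts, unnormalized, for each library, from a stranded poly-A kit with single-end reads. The strand setting of the counting is not given in the sources used here. Samples were grouped by the genotype in their labels, each library taken as 1 mouse. Symbols, positions and exon lengths came from GENCODE M21 (52125 of 56980 identifiers had a symbol), and promoter windows from RefSeq GRCm38.p6.

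Genes reaching 10 counts in 4 or more libraries entered DESeq2 1.42.0 in R 4.3.3, which the study also used, with genotype as the only term and two-sided Wald tests adjusted by Benjamini-Hochberg over 15986 genes. edgeR 4.0.16 and limma 3.58.1 were alternatives. Scripts were tested on simulated data. Ratios used counts with an offset of 0.5, correlations log2(normalized count + 1), both with exact permutation tests over 8 libraries (40320 orders for a correlation). Libraries of one genotype differed by chi-square values of 5.75 to 59.0 per gene, so no pair within a genotype looked like 1 library deposited again. Precision is limited by 4 mice per genotype. Reads carried no molecular identifiers, so the floor of 3 counts allows for counting error alone.

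The members and the gene lists were chosen with earlier results of these data known. Genes named are the 10 members, the 5 genes most like Nfkbiz with a mean of at least 100 normalized counts, and in each pathway list at most 3 genes, those of lowest unadjusted p under 0.05 and a mean of at least 20. All other genes in the text were named for their role or after their values were seen. Replicate numbers did not pair the libraries.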

Additional observations from a re-analysis of the deposited data

Results flagged for a closer look

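Within genotypes, 20 groups of 4 values (10 genes in 2 genotypes) were examined for a library far from the others, and 2 held one by Dixon's criterion at the 95% level, where chance gives about 1 in 20. Relb had 650.5 normalized counts in Adipoq-F2-KO 1, above the other 3 libraries of that genotype by 0.894 of the whole range. Bcl3 had 1253 normalized counts in floxed 4, above the other 3 controls by 0.835 of the range, and floxed 4 was also the control with the least Nfkbiz and the lowest macrophage and dendritic cell score. Whether these go together for a reason was not tested.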

How the results depend on the processing

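The log2 fold changes of Rela, Bcl3 and Nfkbiz kept their sign under all 17 alternatives, and none of the other 9 members passed an adjusted p of 0.05 in any. Leaving out 1 library gave 0.53 to 0.72 for Nfkbiz, −0.38 to 0.42 for Nfkbia, −0.18 to 0.0751 for Nfkbib, −0.0446 to 0.18 for Nfkbie, −0.30 to 0.0529 for Tnfaip3, −0.0495 to 0.0372 for Nfkb1, −0.28 to 0.28 for Nfkb2, −0.15 to 0.12 for Relb and −0.42 to −0.071 for Bcl3 (smallest without floxed 4). For Rela it gave −0.12 to −0.0099, and the 5 deeper libraries gave −0.19. Estimates near 0 changed sign elsewhere. Limma-voom gave 0.0904 for Nfkbia, 0.0463 for Nfkb2, 0.0052 for Relb and −0.0044 for Nfkb1. Nfkb1 was −0.0115 in edgeR, −0.0078 with TMM factors, −0.0019 with no filter and −0.0005 with the smooth muscle covariate. The 5 deeper libraries gave 0.47 for Nfkbia, 0.18 for Nfkb2, 0.18 for Relb, 0.24 for Tnfaip3 and −0.0185 for Nfkbie, and the macrophage and dendritic cell covariate gave −0.087 for Nfkbie. The cause of these shifts was not tested.

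The number of genes past an adjusted p of 0.05 was 6 with DESeq2, 2 with edgeR, 1 with limma-voom, 3 with no filter and 78 in the 5 deeper libraries, and 2 to 103 when 1 library was left out. Members with an unadjusted p under 0.05 were 2 in the 5 deeper libraries (Nfkbiz, higher, and Bcl3, lower), where 5.4% of all tested genes reached that p. They were 1 to 2 when 1 library was left out, where 1.76% to 8.14% of all tested genes reached it. Ratios of Nfkbiz past the adjusted threshold numbered 0 to 6 when 1 library was left out. The level of Nfkbiz had rank 3 among members in TPM, 4 by the longest transcript and 2 in CPM, without length, since the lengths differ.

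Replicate numbers did not pair the libraries (correlations of deviations 0.542, 0.294, 0.011 and −0.423), nor did the numbers in the sample descriptions, which match 3 other pairs (−0.346, −0.12 and 0.052). With a replicate block 11 genes passed, Nfkbiz was 0.65 with an adjusted p of 0.404, and Nfkbia and Nfkb2 turned to 0.0492 and 0.0038, while Nos2 turned from −0.89 to 1.42 with an adjusted p of 1.0. With that block the unadjusted DESeq2 p was 0.0525 for Tnfaip2, 0.074 for Ier3 and 0.104 for Nod1. It was 0.00609 for Irf1 and 0.0216 for Fosb. Depth ranged from 6007654 counts up, and 4 ligands and 8 IκBζ-linked genes at 3 counts or fewer in every library were below what it can compare.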
